A study of Mus musculus with 144 samples.

Results

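The mitochondrially encoded genes of mouse liver were taken as all rows of the deposited gene count table whose symbol starts with mt-. The rule found 37 of 51912 rows: 13 protein genes, 2 rRNA genes and 22 tRNA genes, of which 14 tRNA genes lie on the heavy strand and 8 on the light strand. Livers came from male C57BL/6J mice kept under 12 h of light and 12 h of darkness with free access to food and water, and were collected at zeitgeber times (ZT, hours after lights on) 2, 6, 10, 14, 18 and 22. Each time had 6 libraries of each of 4 kinds, 144 in all: wild-type animals gave total, nuclear and polysomal RNA, and Bmal1-/- animals gave total RNA only. Bmal1 (Arntl in the table) encodes a transcription factor of the circadian clock. RNA was counted by 3′ tag sequencing (Lexogen QuantSeq), in which oligo(dT) priming gives a read near the poly(A) tail of an RNA. The labels do not say which libraries come from separate animals, so the p-values measure the spread between these libraries, which may be partly technical.

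Mitochondrial DNA is read by its own RNA polymerase into long transcripts of both strands. Most protein and rRNA genes are separated by tRNA genes, and excision of the tRNAs releases the mRNAs and rRNAs. Most of these RNAs, but not all, receive short poly(A) tails inside the organelle. The protein genes encode core subunits of the respiratory chain and ATP synthase: the mt-Nd genes of complex I, mt-Cytb of complex III, the mt-Co genes of complex IV, and mt-Atp6 and mt-Atp8 of ATP synthase. mt-Rnr1 and mt-Rnr2 encode the rRNAs of the mitochondrial ribosome, which translates these mRNAs within the organelle. Liver is rich in mitochondria, and RNA prepared from whole liver carries much mitochondrial RNA.

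Depth, as summed gene counts, was 5316601 to 9831142 for the wild-type total libraries, 1662449 to 6620128 for nuclear, 2578048 to 13068044 for polysomal and 4379549 to 14281894 for Bmal1-/- libraries. Hepatocyte markers were detected in every kind, and Alb reached a median of 48524 CPM (a gene's counts scaled to a library of 1000000) in wild-type total RNA. As checks of the fractions, Neat1, a nuclear noncoding RNA, was 3.06 ± 0.14 log2 units higher in nuclear and 4.27 ± 0.15 lower in polysomal than in wild-type total RNA (± SE), but Malat1, also a nuclear RNA, differed by -0.32 ± 0.12 in the nuclear comparison. Arntl averaged 6.73 ± 5.40 CPM (SD, n = 36) in wild-type total and 11.5 ± 2.98 in Bmal1-/- RNA; a 3′ tag outside a deleted part checks nothing, and the sources used here do not say which part was deleted. Its wild-type time-point means ran from 0.852 CPM at ZT10 to 12.6 at ZT22 and its Bmal1-/- means from 9.16 to 13.1. The 6 polysomal libraries of replicate 1 stood apart: the summed level of 3 lung markers (Scgb1a1, Sftpc, Sftpa1) was 58.3 to 955 CPM there and at most 1.91 CPM in the other polysomal libraries. Polysomal results are therefore also given without these 6 libraries.

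Of the 37 genes, 11 averaged under 10 counts per library in every kind of sample, and 9 of these form 1 stretch apart from mt-Co1, which lies within it. On the RefSeq annotation (GRCm38.p6) that stretch runs along the mitochondrial chromosome MT from mt-Ty (5260 to 5326) to mt-Tg (9391 to 9458). It holds mt-Co2 (7013 to 7696), mt-Atp8 (7766 to 7969), mt-Atp6 (7927 to 8607) and mt-Co3 (8607 to 9390). The highest count in any of the 144 libraries was 8 for mt-Co2, 3 for mt-Atp8, 12 for mt-Atp6 and 21 for mt-Co3. mt-Ts1, mt-Td and mt-Tk, the tRNA genes for serine, aspartate and lysine, had 0 counts in all 144 libraries. The other 2 genes under the minimum were mt-Tf and mt-Th, which lie elsewhere. The gene table has 8 rows named Gm that were taken as nuclear copies of mitochondrial sequence, and some of them carried very large counts. The near-zero mt- rows therefore cannot be read as a lack of the RNA. Of the 8, only Gm10925 had an entry in the RefSeq annotation used, so the others were not checked there.

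The copy Gm10925 is annotated by RefSeq as a pseudogene at 24613971 to 24614651 of chromosome 1, its 681 bases equal the length of mt-Atp6, and mt-Atp6 stands among its synonyms. Gm10925 ranged from 16044 to 21670 CPM with a median of 18177 in wild-type total RNA, where mt-Atp6 reached at most 1.47 CPM. Gm28437 had a median of 14977 CPM and Gm28661 of 9511 CPM in the same libraries. Gm29216, Gm28438, Gm13340 and Gm13341 had medians of 3124, 1942, 485 and 361 CPM, and Gm28439 of 2.57. Together the 8 copies took 23.8% ± 2.00 of the counts of mt- genes plus copies in wild-type total RNA, 33.2% ± 5.34 in nuclear, 41.8% ± 4.61 in polysomal and 21.8% ± 2.86 in Bmal1-/- RNA (SD, n = 36 each). Reads of these copies and of mitochondrial RNA cannot be told apart in the count table, so an mt- value is the part of the signal that was assigned to the mt- rows.

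**Figure D1:**
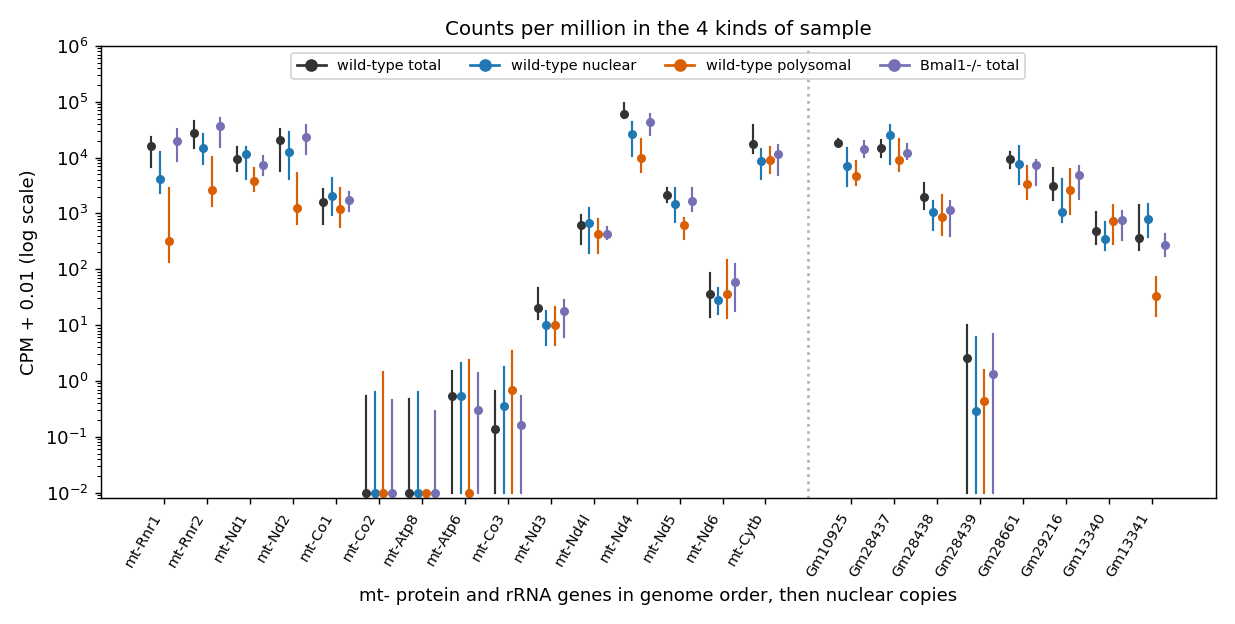
CPM plus 0.01 (log axis) of the 15 mt- protein and rRNA genes in genome order and of the 8 nuclear copies; points are medians and lines run from the lowest to the highest of 36 libraries of each kind. mt-Co2, mt-Atp8, mt-Atp6 and mt-Co3 lie orders below their neighbours in all 4 kinds, while Gm10925, Gm28437 and Gm28661 lie in the range of the abundant mt- genes.

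In wild-type total RNA the mt- rows took 15.97% ± 1.51 of all gene counts (SD, n = 36; lowest 13.1%, median 15.7%, highest 19.7%). In nuclear RNA the share was 8.57% ± 1.84, with a lowest of 5.12%, a median of 8.38% and a highest of 13.04%. In polysomal RNA it was 3.20% ± 0.854, with a lowest of 1.83%, a median of 3.09% and a highest of 5.54%. In Bmal1-/- RNA it was 14.5% ± 1.48, with a lowest of 10.7%, a median of 14.4% and a highest of 17.3%. The nuclear and polysomal libraries thus all lay below the lowest wild-type total library, while the Bmal1-/- and wild-type total ranges overlapped over most of their length. Without the polysomal replicate 1 libraries the polysomal share was 3.03%. Between the genotypes, fewer cells or mitochondria and less mitochondrial RNA in each cannot be told apart in bulk RNA. Where the mt- reads of the nuclear and polysomal fractions come from was not tested. These shares sum over the chosen rows and were not tested.

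The classes made up the share differently. Protein genes took 11.6% of wild-type total, 6.49% of nuclear, 2.80% of polysomal and 8.89% of Bmal1-/- counts. The rRNA genes took 4.35%, 2.00%, 0.375% and 5.54% in the same order. The tRNA genes took 0.0424%, 0.0731%, 0.0271% and 0.0362%, so theirs was the class with a higher mean share in nuclear than in total RNA. mt-Nd4 was the mt- row with the most counts in all 4 kinds, at 39.5% of mt- counts in wild-type total, 30.7% in nuclear, 33.8% in polysomal and 30.8% in Bmal1-/- RNA. mt-Cytb held 11.2% of mt- counts in wild-type total and 28.7% in polysomal RNA. These are shares of 3′ tags and were not divided by gene length.

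**Figure D2:**
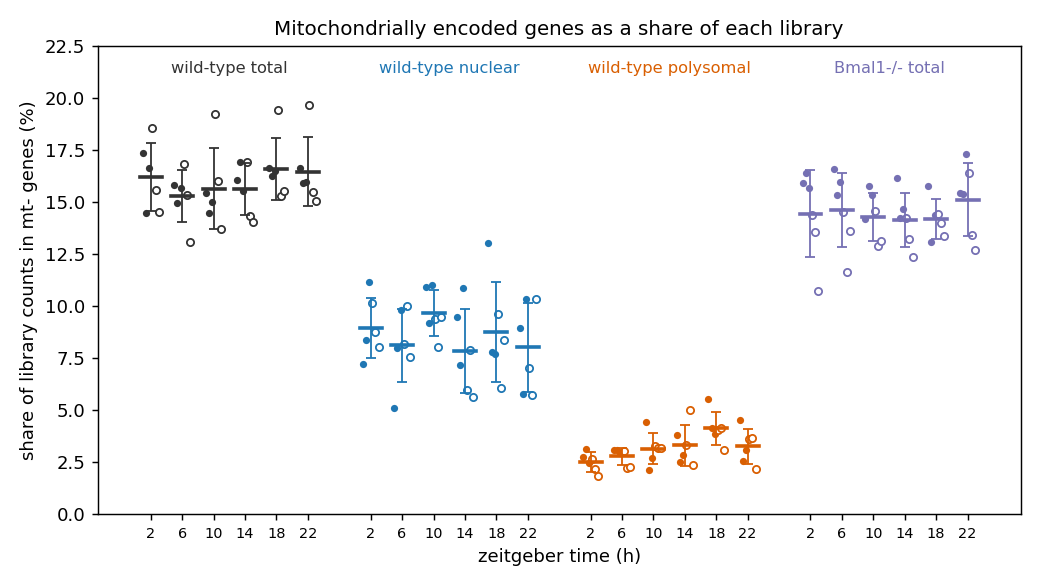
Share of all gene counts (%) that fell in mt- rows, by zeitgeber time (h) and kind of sample; each point is 1 library (filled, replicates 1 to 3; open, replicates 4 to 6), thick lines are means of 6 and thin bars SD. The nuclear and polysomal points lie below all wild-type total points, and the polysomal means run from 2.52% at ZT2 to 4.14% at ZT18.

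Nuclear RNA was compared with wild-type total RNA to see which RNAs are found at other levels in the nuclear fraction. Levels were compared as the mean over the 6 time points, with edgeR's quasi-likelihood test, TMM scaling and Benjamini-Hochberg adjustment over every gene averaging 10 counts or more, and a gene was called at an adjusted p under 0.05. Of 26 mt- genes tested, 22 were called: 13 were higher and 9 lower in nuclear RNA. Among all 11864 genes tested 83.8% were called, 41.6% higher and 42.1% lower, so the share of mt- genes called is near the background. The median log2 change was 0.22 over the mt- genes and -0.01 over all genes. The classes went different ways. Of 9 protein genes tested 1 rose and 6 fell, both rRNA genes fell, and of 15 tRNA genes 12 rose and 1 fell. Without 3 tRNA genes that passed the minimum only through the nuclear libraries, where they are high, 9 of 12 tRNA genes rose and 1 fell.

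mt-Nd4, a membrane subunit of complex I, ranged from 50310 to 93530 CPM with a median of 60785 in the wild-type total libraries and from 10732 to 43241 with a median of 26672 in nuclear RNA. The ranges did not overlap, which held, in the lower direction, for 4.91% of all genes tested, and mt-Nd4 fell by 1.24 ± 0.12 on the log2 scale (SE, adjusted p = 7.86e-16, edgeR). mt-Cytb, the cytochrome of complex III, ranged from 11959 to 37940 CPM (median 17475) in total and from 4078 to 14061 (median 8690) in nuclear RNA. It fell by 1.003 ± 0.0985, with ranges that overlapped. The other called falls among protein genes were those of mt-Nd3 (log2 change -1.20), mt-Nd2 (-0.61), mt-Nd6 (-0.55) and mt-Nd5 (-0.50). Fitted by replicate set, mt-Nd6 changed by -0.86 in replicates 1 to 3 and by -0.060 in replicates 4 to 6, where it was not called (adjusted p = 0.727, edgeR), and mt-Nd2 was not called in replicates 1 to 3 (-0.35, adjusted p = 0.127). mt-Co1, the catalytic subunit of complex IV, rose by 0.24 ± 0.11 (adjusted p = 0.0428), but was not called in replicates 1 to 3 alone (adjusted p = 0.110) or 4 to 6 alone (0.0987). mt-Nd1 (0.16) and mt-Nd4l (0.02) were not called. Of the rRNAs, mt-Rnr1 of the small ribosomal subunit fell by 1.82 ± 0.13 and mt-Rnr2 of the large subunit by 0.90 ± 0.10. Median levels were 15882 CPM in total and 4069 in nuclear RNA for mt-Rnr1 and 27460 and 15076 for mt-Rnr2.

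The tRNA rows carried few counts. Reads there may come from polyadenylated RNAs that end in or near a tRNA gene, but where these RNAs end was not tested. All 6 light-strand tRNA genes tested rose: mt-Tp for proline by 2.36, mt-Te for glutamate by 2.21, mt-Tn for asparagine by 2.11, mt-Tq for glutamine by 1.70, mt-Ta for alanine by 1.38 and mt-Tc for cysteine by 0.93 log2 units. mt-Tn ranged from 5.99 to 26.2 CPM with a median of 14.6 in total RNA and from 28.7 to 107 with a median of 66.0 in nuclear RNA, without overlap. The heavy-strand gene mt-Tw for tryptophan ranged from 3.31 to 13.6 CPM (median 6.13) in total and from 15.6 to 68.9 (median 33.4) in nuclear RNA, again without overlap, and rose by 2.22 ± 0.14. Ranges in which all nuclear libraries lay higher were found for 2.59% of all genes. mt-Ti for isoleucine (0.82) and mt-Tv for valine (0.61) also rose, mt-Tm for methionine fell (-0.32, not called in replicates 4 to 6 alone), and mt-Tl1 for leucine (0.19) and mt-Tt for threonine (-0.30) were not called. mt-Tr (1.88), mt-Ts2 (1.86) and mt-Tl2 (1.96) were called higher but averaged under 10 counts in wild-type total RNA and entered the test only through the nuclear libraries. Without these 3 genes, 10 of 23 mt- genes rose and 9 fell. The light-strand rows together held 0.0781% of mt- counts in wild-type total, 0.410% in nuclear, 0.713% in polysomal and 0.0788% in Bmal1-/- RNA. Whether the authors counted reads by strand is not given in the sources used here, and without strand, reads of a gene and of RNA antisense to it cannot be told apart. mt-Nd6, for example, spans 13552 to 14070 of MT and overlaps the end of mt-Nd5 at 13565 on the other strand. Whether the tags in the mt-Nd6 row come from polyadenylated mt-Nd6 mRNA was not tested.

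**Figure D3:**
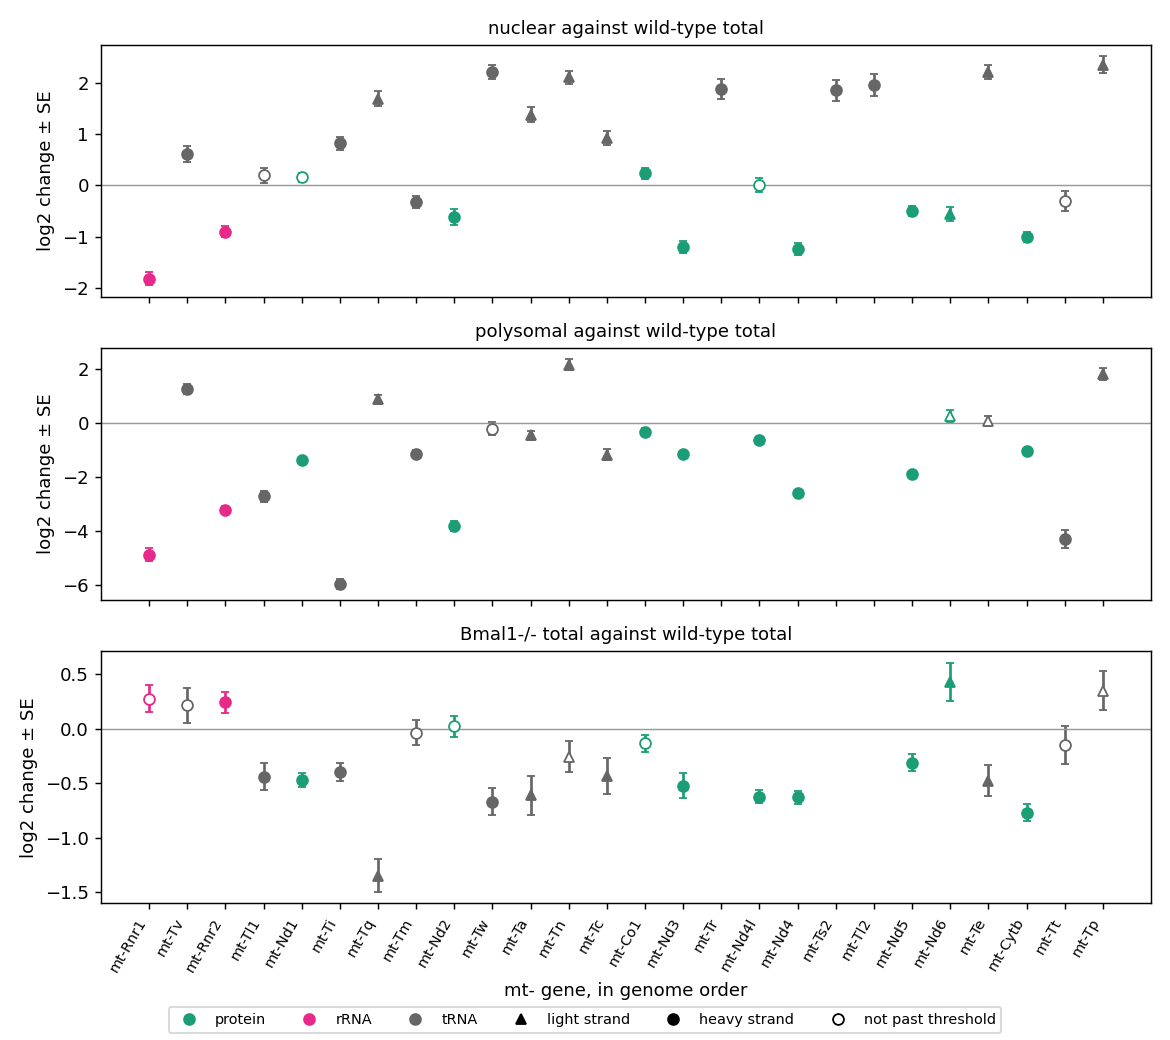
Log2 change ± SE of each tested mt- gene, in genome order, in the 3 comparisons with wild-type total RNA (triangles, light strand; circles, heavy strand; open symbols, not past the threshold). In the nuclear comparison the light-strand tRNA genes lie above 0.9 and both rRNA genes below -0.8, and in the polysomal comparison the rRNA genes, mt-Nd2, mt-Nd4, mt-Tl1, mt-Ti and mt-Tt lie below -2.

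Polysomal RNA was compared in the same way, against the same wild-type total libraries. Of 23 mt- genes tested, 20 were called: 16 were lower and 4 higher in polysomal RNA. Of all 11556 genes tested 76.1% were called, 37.6% lower and 38.4% higher. The median log2 change was -1.15 over the mt- genes and 0.01 over all genes. Without the polysomal replicate 1 libraries 21 were called, 17 lower and 4 higher, where 76.5% of all genes were called. The median stayed at -1.15, and the added call was mt-Tw (-0.20 with and -0.70 without these libraries).

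All 8 heavy-strand protein genes tested fell, by very different amounts. mt-Nd2 of complex I fell most: it ranged from 5677 to 31962 CPM with a median of 20644 in the wild-type total libraries and from 641 to 5399 with a median of 1241 in polysomal RNA. The ranges did not overlap, and the log2 change was -3.81 ± 0.17 (adjusted p = 8.34e-31, edgeR). mt-Nd4 had a polysomal range of 5545 to 21960 CPM with a median of 9861 and fell by 2.61 ± 0.10. mt-Nd5 ranged from 1587 to 2894 CPM (median 2108) in total and from 346 to 841 (median 628) in polysomal RNA and fell by 1.87 ± 0.08. The ranges of mt-Nd4 and mt-Nd5 did not overlap either; all polysomal libraries lay lower for 2.18% of all genes tested and higher for 2.26%. mt-Nd1 (-1.37), mt-Nd3 (-1.15) and mt-Cytb (-1.05) fell by intermediate amounts, and mt-Nd4l (-0.61) and mt-Co1 (-0.31 ± 0.12, adjusted p = 0.0163) fell least. mt-Co1 ranged from 655 to 2752 CPM in total and from 580 to 2799 in polysomal RNA, so its ranges overlapped almost fully. mt-Nd4l and mt-Nd4, whose coding regions overlap by a few bases from 10167 of MT, thus had log2 changes of -0.61 and -2.61. No tRNA gene lies between these genes, and whether the tags of both rows come from separate RNAs was not tested. mt-Nd6, the light-strand protein gene, had medians of 35.8 CPM in total and 36.8 in polysomal RNA and was not called (0.26 ± 0.21, adjusted p = 0.263).

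Both rRNAs lay far lower in polysomal RNA. mt-Rnr1 ranged from 6738 to 23802 CPM with a median of 15882 in wild-type total and from 138 to 2831 with a median of 327 in polysomal RNA, a log2 change of -4.87 ± 0.25. mt-Rnr2 ranged from 14874 to 45283 (median 27460) and from 1375 to 10456 (median 2576), a change of -3.23 ± 0.15. Neither pair of ranges overlapped. mt-Nd2, mt-Rnr1 and mt-Rnr2 were also called lower without the replicate 1 libraries. Of the tRNA rows, mt-Tl1 (-2.71), mt-Tc (-1.18), mt-Tm (-1.15) and mt-Ta (-0.46) fell, and mt-Tn (2.16), mt-Tp (1.80), mt-Tv (1.26) and mt-Tq (0.87) rose; mt-Te (0.09) and mt-Tw were not called over all replicates. mt-Te was called in opposite directions, 0.69 in replicates 1 to 3 (adjusted p = 0.0208, edgeR) and -0.70 in replicates 4 to 6 (0.00107), and mt-Tw changed by 0.68 (0.0913) and -1.34 (5.08e-06). mt-Ta had a log2 change of 0.16 in replicates 1 to 3 alone, where it was not called, and of -1.16 in replicates 4 to 6 alone. mt-Ti fell from a median of 66.3 CPM to 1.17 and mt-Tt from 5.56 to 0.167, with log2 changes of -5.95 and -4.29, but both averaged under 10 counts in polysomal RNA and entered the test through the wild-type total libraries. Without these 2 genes, 14 of 21 fell and 4 rose. mt-Tn had a polysomal range of 16 to 317 CPM with a median of 50.4. Summed red blood cell markers had a median of 2585 CPM in wild-type total and 8852 in polysomal RNA. Of these 5 markers 4 were called higher, while 38.4% of all genes were. The part of these markers in the mt- changes was not tested.

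Of the 8 nuclear copies, 7 fell and 1 rose in polysomal RNA, with a median log2 change of -1.30. Of all genes, 37.6% were called lower and 38.4% higher there. Gm10925 fell by 2.00 ± 0.08 and Gm13341 by 3.55 ± 0.11, while Gm13340 rose by 0.34 ± 0.12. In nuclear RNA 6 of the 8 fell, among them Gm10925 by 1.38 ± 0.09, and Gm28437 (0.63) and Gm13341 (1.09) rose. In that comparison 42.1% of all genes were called lower and 41.6% higher, so the share of copies called is near the background. With the copies added, the mitochondrial share was 20.9% in wild-type total, 12.8% in nuclear, 5.50% in polysomal and 18.5% in Bmal1-/- RNA, in the same order as the mt- rows alone.

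Bmal1-/- total RNA was compared with wild-type total RNA to ask how loss of the clock gene goes with mitochondrial RNA. Of 23 mt- genes tested, 15 were called: 13 were lower and 2 higher. Of all 12082 genes tested 44.2% were called, 22.4% lower and 21.7% higher. The median log2 change was -0.40 over the mt- genes and close to 0 over all genes. With library totals alone as scaling the calls were 12 lower and 4 higher. There 49.5% of all genes were called, and the median of all genes moved to 0.10. mt-Cytb fell most among the protein genes, from a median of 17475 CPM to 11501, within a Bmal1-/- range of 4938 to 16788 CPM, a log2 change of -0.77 ± 0.08 (adjusted p = 4.67e-13, edgeR). mt-Nd4 ranged from 25364 to 61221 CPM with a median of 44048 in Bmal1-/- RNA and fell by 0.63 ± 0.06. mt-Nd4l (-0.62), mt-Nd3 (-0.52), mt-Nd1 (-0.47) and mt-Nd5 (-0.31) also fell. mt-Nd6 rose by 0.43 ± 0.17 (adjusted p = 0.0398), from a median of 35.8 CPM to 59.8. mt-Nd2 (0.02 ± 0.10) and mt-Co1 (-0.14 ± 0.08) were not called. mt-Rnr2 rose by 0.24 ± 0.10 (adjusted p = 0.0377), and mt-Rnr1, at 0.28 ± 0.12, was not called (adjusted p = 0.0618). Of 12 tRNA rows 7 fell and none rose: mt-Tq fell by 1.35 ± 0.15, mt-Tw by 0.67, mt-Ta by 0.61, mt-Te by 0.48, mt-Tl1 by 0.44, mt-Tc by 0.43 and mt-Ti by 0.40. mt-Tm (-0.04), mt-Tn (-0.26), mt-Tt (-0.15), mt-Tv (0.21) and mt-Tp (0.35) were not called. The ranges of all 23 genes overlapped between the genotypes. Among all genes, 0.0166% lay lower and 0.0414% higher without overlap.

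The Bmal1-/- differences depended on which replicates were used. In replicates 1 to 3 alone 7 mt- genes were lower and 6 higher, and in replicates 4 to 6 alone 13 were lower and 0 higher. Of all genes, 38.8% and 33.5% were called in these sets, in either direction. Of the 23 genes, 12 had the same direction in both sets, 5 were called lower in both (mt-Cytb, mt-Nd4, mt-Nd4l, mt-Nd1 and mt-Tq) and none was called higher in both. Agreement between the sets was not counted over all genes, so these counts have no background to be set against. No mt- gene was called higher when replicate 1, 2 or 3 was left out of both genotypes, where 41.4%, 40.1% and 37.4% of all genes were called. mt-Cytb changed by -0.80 and -0.73, mt-Nd4 by -0.77 and -0.50, mt-Nd4l by -0.68 and -0.55, mt-Nd1 by -0.69 and -0.26, and mt-Tq by -1.10 and -1.65 in replicates 1 to 3 and 4 to 6. mt-Nd2 was called in opposite directions, 0.34 in replicates 1 to 3 and -0.34 in replicates 4 to 6. mt-Rnr2 was 0.57 (adjusted p = 4.1e-08) and -0.14 (0.52), and mt-Rnr1 0.51 and -0.05. The rRNA genes took 6.73% ± 0.937 of counts in Bmal1-/- replicates 1 to 3 and 4.36% ± 1.35 in replicates 4 to 6 (SD, n = 18 each), against 4.40% ± 0.567 and 4.30% ± 1.45 in wild-type total RNA. The mt- share without rRNA was 9.32% and 9.57% in the Bmal1-/- sets and 12.0% and 12.3% in the wild-type sets. The labels do not say that these sets are batches. Some marker genes differed between the genotypes as well, over all replicates, where 22.4% of all genes were called lower and 21.7% higher. Summed red blood cell markers had medians of 2585 CPM in wild-type and 1464 in Bmal1-/- RNA, with 4 of 5 called lower. Also called lower were 4 of 5 Kupffer cell markers and both fat markers tested. Of 5 hepatocyte markers 2 were higher and 1 lower. The cholangiocyte marker tested and 2 of 4 stellate cell markers were called higher, and of 5 sinusoidal endothelial cell markers 1 was higher and 1 lower. Their part in the mt- changes was not tested.

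**Figure D4:**
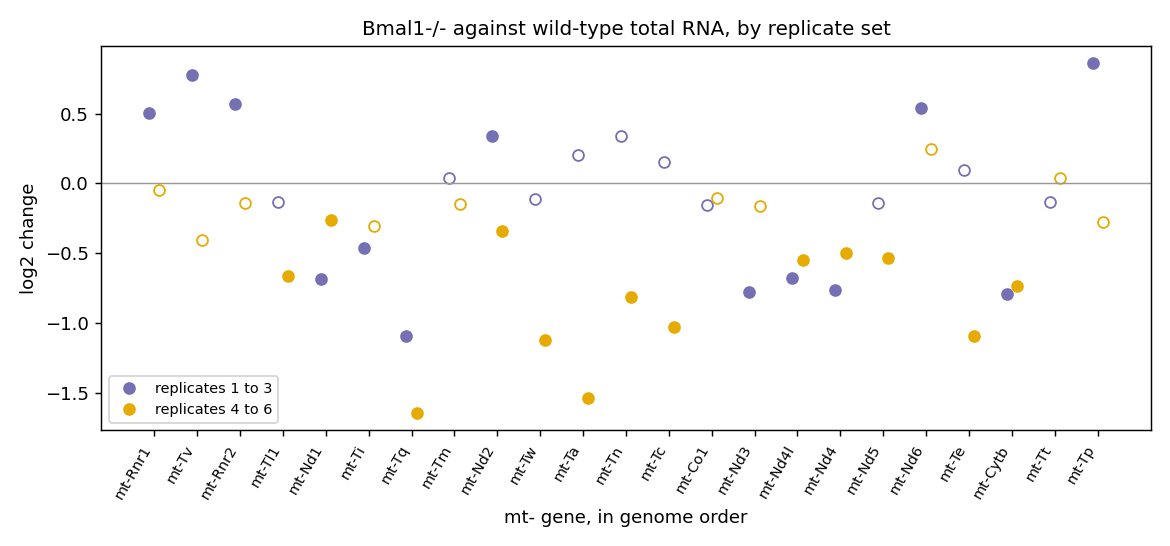
Log2 change of each mt- gene in Bmal1-/- against wild-type total RNA, fitted in replicates 1 to 3 alone and in replicates 4 to 6 alone; filled points are past an adjusted p of 0.05. mt-Cytb, mt-Nd4, mt-Nd4l, mt-Nd1 and mt-Tq are filled and below 0 in both sets, while mt-Nd2 is filled above 0 in the first and below 0 in the second.

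Time of day was tested with a 24 h cosine over the 6 time points, within each kind of sample. In wild-type total RNA 3 of 23 mt- genes were called rhythmic, while 18.9% of all genes were. The mt- share had time-point means of 15.3% to 16.6%. mt-Nd4 had means of 70489 ± 12392 CPM at ZT2, 56864 ± 2165 at ZT6, 60893 ± 4843 at ZT10, 57053 ± 5306 at ZT14, 64484 ± 6700 at ZT18 and 67280 ± 5413 at ZT22 (SD, n = 6 each). It was high late in the night and early in the day, with a fitted peak at ZT22.6 and a peak 1.27 times the trough (adjusted p = 0.0441, edgeR). mt-Tq peaked at ZT22.4 with a fitted ratio of 2.14 (adjusted p = 0.0153), where the ZT22 libraries ran from 34.9 to 120 CPM and those of the other times from 8.16 to 43.2. mt-Tt peaked at ZT2.5 with a ratio of 2.99 (adjusted p = 0.0306); 1 of its ZT2 libraries held 75.4 CPM and the other 5 at most 13.1. The calls were few: 1 gene was called without replicate 2 or without replicate 5, where 12.8% and 12.7% of all genes were. In replicates 1 to 3 or 4 to 6 alone 0 were called, where 11% and 5.33% of all genes were.

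In polysomal RNA 8 of 22 mt- genes were called rhythmic, while 7.9% of all genes were. The called genes were mt-Cytb, mt-Nd4, mt-Nd1, mt-Nd5, mt-Tq, mt-Tm, mt-Tn and mt-Ta, and all had fitted peaks between ZT15.6 and ZT18.2, in the dark phase. mt-Cytb averaged 7319 ± 1958 CPM at ZT2, 7648 ± 1524 at ZT6, 8823 ± 2242 at ZT10, 9183 ± 3509 at ZT14, 12164 ± 1526 at ZT18 and 9240 ± 1497 at ZT22 (SD, n = 6 each). All 6 ZT18 libraries, at 10722 to 14428 CPM, lay above 5 of the 6 at ZT2. Its fitted peak was 1.79 times the trough (adjusted p = 0.0164, edgeR). The ratios were 1.77 for mt-Nd4, 1.57 for mt-Nd1 and 1.56 for mt-Nd5, and 3.71 for mt-Tn, 3.39 for mt-Tq, 3.27 for mt-Tm and 2.41 for mt-Ta. Adjusted p-values of these genes ran from 0.00295 for mt-Tq to 0.0486 for mt-Nd5 and mt-Ta. The whole mt- share rose and fell with them as a sum of the same counts, with means of 2.52% ± 0.464, 2.78% ± 0.411, 3.16% ± 0.760, 3.32% ± 0.980, 4.14% ± 0.795 and 3.27% ± 0.837 from ZT2 to ZT22.

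The number of these polysomal calls changed with the libraries used, as did the share of all genes called. Without the replicate 1 libraries, those with lung markers, 3 genes were called, all of them among the 8, while 5.8% of all genes were. mt-Cytb, mt-Tq and mt-Tm passed there, and mt-Nd1, mt-Nd4, mt-Nd5, mt-Ta and mt-Tn had adjusted p-values of 0.0811 to 0.168. Leaving out replicate 3 in the same way gave 4 calls, and leaving out replicate 5 or 6 gave 2 each. Of all genes, 6.31%, 4.29% and 4.01% were called in these 3 fits. With library totals alone as scaling 3 genes were called, in replicates 1 to 3 alone 0, and in replicates 4 to 6 alone 1. The shares of all genes called there were 9.38%, 1.12% and 5.54%. In the opposite direction, 14 were called with all 4 kinds of sample in 1 fit, where 23.6% of all genes were called. With DESeq2 in place of edgeR 11 were called, where 10.3% of all genes were. Of the nuclear copies, 4 of 7 tested were called rhythmic in polysomal RNA over all replicates, while 7.9% of all genes were. Some time points held single high libraries: at ZT14 replicate 3 held 317 CPM of mt-Tn and the others 42.2 to 61.5. Summed red blood cell markers had polysomal medians from 5560 CPM at ZT14 to 13690 at ZT6, and their part in the time pattern was not tested.

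**Figure D5:**
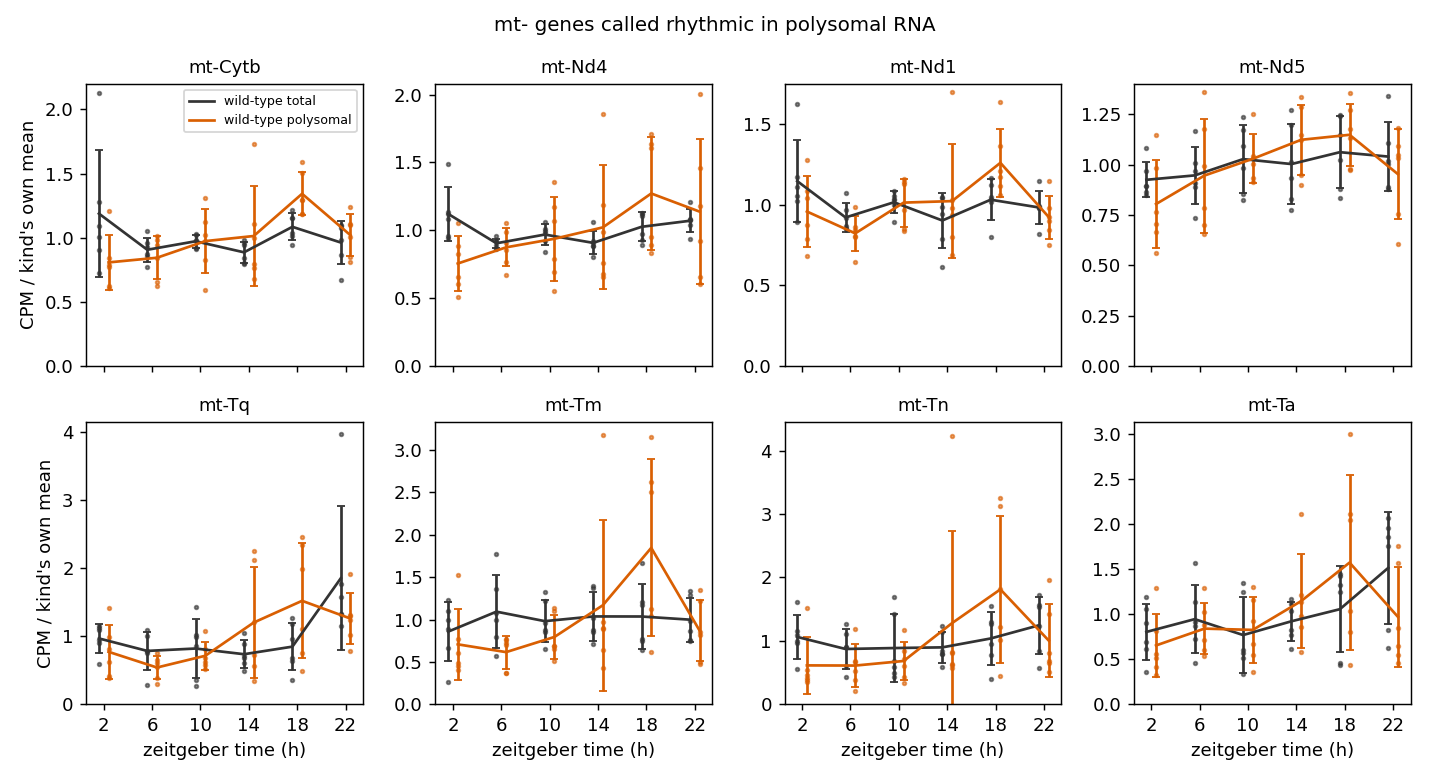
CPM of the 8 mt- genes called rhythmic in polysomal RNA, divided by the mean of the same kind of sample, by zeitgeber time (h), in wild-type total (black) and polysomal (orange) RNA; points are libraries, lines join means of 6 and bars are SD. The polysomal means are highest at ZT18 for all 8 genes, and single libraries of the tRNA rows lie far above the mean.

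In nuclear RNA 0 of 26 mt- genes were called rhythmic by edgeR, with 0 at an unadjusted p under 0.05. Of all 11172 genes tested 5.99% were called, and 1944 were at an unadjusted p under 0.05. In Bmal1-/- RNA 0 of 23 were called, with 2 at an unadjusted p under 0.05 (mt-Ti and mt-Nd4l). Of all 12126 genes tested 0.00825% were called, and 491 were at an unadjusted p under 0.05. DESeq2 also called 0 in both. A difference in rhythm from wild-type total RNA was tested by the interaction of kind and time. It was called for 0 of 23 mt- genes in polysomal RNA and for 0 of all 11556 genes. At an unadjusted p under 0.05 were 10 of these 23 mt- genes and 681 of all genes. In nuclear RNA it was called for 0 of 26 mt- genes and 0 of all 11864 genes. There 0 mt- genes and 244 of all genes were at an unadjusted p under 0.05. For Bmal1-/- RNA the difference was called for 0 of 23 mt- genes, with 1 at an unadjusted p under 0.05 (mt-Tt). Of all 12082 genes 5.11% were called, and 2100 were at an unadjusted p under 0.05. At the adjusted threshold the polysomal pattern is therefore not shown to differ from that of total RNA. The tests were also run on simulated data of the same design, in which every gene had the same fixed spread, not estimated from these data. There the test of this difference recovered 9 of 66 genes given a 2-fold rhythm in polysomal RNA only. It recovered 1 of 67 given a 1.5-fold rhythm. The test of rhythm within polysomal RNA recovered 46 of 67 genes at 2-fold and 6 of 67 at 1.5-fold. As the spread of the mt- genes was not used, how often such differences in them would pass undetected was not measured.

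The nuclear-encoded genes that maintain and express the mitochondrial genome were taken from a list of 53, of which 52 had a row. In nuclear RNA 15 of 48 tested were higher and 27 lower, where 83.8% of all genes were called. The largest falls were those of Slirp, an RNA-binding protein that stabilises mitochondrial mRNAs (-3.55), Tfb2m, a transcription initiation factor (-2.22), and Fastkd2, a mitochondrial RNA-binding protein (-2.05). The largest rises were those of the transcription factor Nrf1 (2.25), the coactivator Ppargc1b (1.55) and Polg, the mitochondrial DNA polymerase (1.38). In polysomal RNA, where 76.1% of all genes were called, 14 of 49 were higher and 18 lower, led by Ptcd1 (-1.61), Mto1, a tRNA-modifying enzyme (-1.29), and Polrmt, the mitochondrial RNA polymerase (-1.24), and by Esrra (1.25), the exonuclease Rexo2 (1.09) and Grsf1 (0.86). In Bmal1-/- RNA, where 44.2% of all genes were called, 4 of 49 were higher and 11 lower, and the list's median log2 change was -0.02. Hsd17b10, a subunit of the mitochondrial RNase P that cuts tRNAs from the transcripts, fell by 0.68 ± 0.07, Fastk by 0.32 and Polg2, a polymerase subunit, by 0.31. The mitochondrial topoisomerase Top1mt rose by 0.68 ± 0.06, the coactivator Ppargc1a by 0.52 and Tfb1m, which methylates the small rRNA, by 0.40. Rhythm was called for 8 of 50 in wild-type total, 2 of 40 in nuclear, 3 of 48 in polysomal and 0 of 49 in Bmal1-/- RNA, against 18.9%, 5.99%, 7.9% and 0.00825% of all genes.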

How the data were processed

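The table of raw gene counts deposited by the authors was used, with 144 libraries and 51912 rows. Per the submitters' processing notes the tools included STAR 2.4.2a, edgeR and HOMER and the builds mm10 and GRCm38.p5; how multiply mapping reads were counted is not given in the sources used here. CPM are counts scaled to 1000000 gene counts per library. Groups follow the labels. Levels and rhythms were tested with edgeR 4.0.16 (R 4.3.3; quasi-likelihood F test, TMM, mean of at least 10 counts over the libraries in the fit, Benjamini-Hochberg over all genes tested, threshold 0.05); the fits were tested on simulated data. DESeq2 1.42.0 was an alternative. All 3 comparisons share the wild-type total libraries, so they are not independent of each other. No 2 libraries of a group were identical in 360 pairs compared. Planned tests of polyadenylation sites were not possible: 0 of the 86780 sites in the list used lay on the mitochondrial chromosome. Named were all protein and rRNA genes, tRNA genes that passed the filter, genes called rhythmic, 4 control genes, 8 nuclear copies, and the 3 largest rises and falls of the nuclear-encoded list. The members and lists were chosen with earlier results of these data known.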

Additional observations from a re-analysis of the deposited data

Results flagged for a closer look

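In 90 groups of 6 libraries (the mt- share in each group, and each gene called rhythmic in its kind of sample), 10 single libraries lay far from the other 5; chance flags about 1 group in 20. In wild-type total RNA, replicate 4 had the highest mt- share at ZT18 (19.43% against 15.28% to 16.64% in the others) and at ZT22 (19.65% against 15.07% to 16.65%). At ZT2 replicate 4 also held 93530 CPM of mt-Nd4 (others 59148 to 71224) and 75.42 CPM of mt-Tt (others 2.373 to 13.05). Replicate 3 held 120 CPM of mt-Tq at ZT22 (others 34.88 to 53.48). In polysomal RNA, replicate 5 held 6547 CPM of mt-Nd1 at ZT14 (others 2660 to 3975). Polysomal replicate 2 at ZT2 held 101.6 CPM of mt-Tm (others 27.34 to 51.29) and 113.6 CPM of mt-Tn (others 25.75 to 40.91). Polysomal replicate 3 at ZT14 held 212.6 CPM of mt-Tm (others 28.96 to 64.75) and 316.9 CPM of mt-Tn (others 42.21 to 61.5). All 10 were the highest of their group.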

How the results depend on the processing

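The number of mt- genes called in the level comparisons stayed within 1.5 times its value under all settings run. It was 18 to 24 in nuclear, 18 to 28 in polysomal and 13 to 16 in Bmal1-/- RNA. The split of the Bmal1-/- calls moved, with 0 higher and 16 lower among genes with at least 1 count. That setting tested 34 mt- genes in each comparison and gave the 28 polysomal calls. Of all genes it called 51.5% in nuclear, 48.3% in polysomal and 22.4% in Bmal1-/- RNA. The other settings called 76.7% to 85.6%, 65.8% to 77.2% and 32.1% to 49.5%. Rhythm calls moved most. In wild-type total RNA the 3 calls, with 18.9% of all genes called, became 1 (8.07%) among genes with at least 1 count. They became 0 in replicates 1 to 3 alone (11% of all genes) and 0 in replicates 4 to 6 alone (5.33%). Leaving out 1 replicate number gave 1 to 2 calls (12.7% to 18.6% of all genes). In polysomal RNA the 8 calls, with 7.9% of all genes called, became 3 (9.38%) with library totals alone, 0 (1.12%) in replicates 1 to 3 and 1 (5.54%) in replicates 4 to 6. They became 14 (23.6%) with all 4 kinds in 1 fit and 3 (5.8%) without the replicate 1 libraries. Leaving out 1 replicate number gave 2 to 7 calls (4.01% to 6.53% of all genes). The polysomal difference in rhythm became 1 (mt-Tc) among genes with at least 1 count, where 1.59% of all genes were called. The cause was not tested. Of the mt- genes tested in both replicate sets, 23 of 26 nuclear, 20 of 23 polysomal and 12 of 23 Bmal1-/- genes had the same direction in both. The same agreement was not counted over all genes. Among genes called over all replicates, directions turned in a set for mt-Ta in polysomal RNA (0.16 in replicates 1 to 3) and, in Bmal1-/- RNA, for mt-Ta (0.20), mt-Tc (0.16) and mt-Te (0.095) in replicates 1 to 3 and mt-Rnr2 (-0.14) in replicates 4 to 6. Without the 2 rRNA genes the mt- share was 12.15% in wild-type total, 6.70% in nuclear and 9.44% in Bmal1-/- RNA; with the nuclear copies, an alternative chosen after seeing the data, it was 20.92% in wild-type total, 12.82% in nuclear, 5.50% in polysomal and 18.48% in Bmal1-/- RNA. The share from the site table was not run, as that list holds no mitochondrial site. With a replicate block the calls were 21 (nuclear), 21 (polysomal) and 16 (Bmal1-/-) for levels, 3, 0, 11 and 0 for rhythm (total, nuclear, polysomal, Bmal1-/-) and 0 for each difference in rhythm. Of all genes, the block called 85.6%, 74.3% and 43.4% for levels and 25.4%, 8.92%, 14.1% and 0% for rhythm, in the same orders. The block moved no count by over 1.5 times, but it shared only 2 of the 3 rhythm calls in total RNA (mt-Tt was lost and mt-Tc gained), and mt-Co1 in nuclear RNA was not called with it. Other calls were gained with it: mt-Tw in polysomal and mt-Rnr1 in Bmal1-/- levels, and mt-Rnr2, mt-Nd3 and mt-Nd4l in polysomal rhythm. Same-numbered libraries of a time point deviated together beyond a correlation of 0.1 in 34 nuclear, 0 polysomal and 15 Bmal1-/- pairs of 36 each. The wild-type total library of the same number was the best match for 31 nuclear, 0 polysomal and 11 Bmal1-/- libraries. The main fits did not treat these libraries as pairs, while the replicate block did so for levels and differences in rhythm. Depth limits the tRNA rows, and the self-test, with the same fixed spread for every gene, recovered few rhythms of 1.5-fold.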
